A study of Mus musculus with 8 samples.

Results

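The tumor suppressor p53 is a transcription factor, and 40 genes that it is known to act through were followed in kidneys with and without c-Maf. They were chosen by name as the genes of arrest, apoptosis, repair, and feedback, and all 40 were found among the 55367 genes of the count table. RNA-Seq had been performed on whole kidneys of C57BL/6J mice aged 8 weeks, with 4 mice per genotype. The c-MafΔTAM mice carried floxed c-Maf alleles and the CAG-Cre-ERTM transgene, whose promoter is active in nearly every tissue, so that tamoxifen (TAM) removed c-Maf from the whole animal. The c-Maf fl/fl mice carried the same floxed alleles without Cre and were also given TAM, and they are called controls below, so the loss of c-Maf and the presence of active Cre cannot be told apart.

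In unstressed cells p53 is made continuously and destroyed quickly, because its own target Mdm2 marks it for degradation. DNA damage and other stresses stabilize the protein, mostly without a change in its mRNA, and it then binds a pair of similar short sequences near its targets and raises their transcription. The targets stop the cell cycle, repair DNA, trigger apoptosis, adjust metabolism, and feed back on p53, and in injured kidney tubules this program is known to take part in arrest and cell death.

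The libraries held 16649129 to 22990257 counts each, and 20149 genes passed the filter on low counts, among them all 40 p53 target genes. Levels are given as CPM, the count of a gene scaled to library size by TMM normalization, and fold changes as log2 of c-MafΔTAM over c-Maf fl/fl, with the standard error (SE) of the fit. For the comparison of genotypes, the quasi-likelihood test of edgeR was run over all 20149 genes, and a gene was taken to rise or fall where its adjusted P value was under 0.05. Maf itself was at 9.06, 34.5, 29.6, and 10.1 CPM in c-MafΔTAM mice 1 to 4. The c-Maf fl/fl mice, in the same order of their numbers as for every gene below, had 379.9, 342.2, 305.4, and 351.1 CPM. Although an extraction note in the labels names liver, proximal tubule markers summed to 17088 to 27928 CPM, and of 8 hepatocyte markers Ahsg had 0 counts in all 8 mice, Apoa1 was at 0 to 1.77 CPM, and Alb was at 0.661 to 8.85 CPM. Among the other hepatocyte markers, Apoa2 and Fgb were at 0.916 to 2.94 and 1.12 to 3.77 CPM, Serpina1a at 1.27 to 14.5 CPM, Ttr at 0.204 to 67.8 CPM, and Cyp2e1 at 47.2 to 1398 CPM. The labels give no sex, and Xist, the RNA made from the inactive X chromosome, was at 0.102 CPM in c-MafΔTAM mouse 1 and at 0.304 and 1.29 CPM in controls 3 and 4. In the other 5 mice it was at 946.4 to 1011 CPM, and these mice are called high-Xist below. Mitochondrial genes took 17.1% to 32.3% of the counts, and the highest share was that of c-MafΔTAM mouse 1.

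The promoters of the p53 target genes were searched for the p53 consensus, as a description without a test. The genes were chosen as p53 targets, so the shares below describe the list and not the genotypes. The consensus is a pair of 10-letter half-sites, each with a fixed C and G at its core, and up to 13 bases were allowed between them. RefSeq windows of GRCm38.p6, from 250 bases before to 50 bases after a gene start, were given for 31 of the 40 genes. Some genes have several starts, so the 31 had 42 windows, and a gene was counted if any of its windows held a match. A match without a mismatch stood in 1 of the 31, Cdkn1a (3.23%), against 0.074% of 27025 genes with a window. With at most 2 mismatches over the 20 letters and both cores kept, 5 of the 31 held a match (16.1%), namely Ccng1, Gtse1, Cdkn1a, Bax, and Sesn1, against 4.71% of all genes. The matches are shown with 20 bases on each side, with the half-sites in capitals, for Ccng1 (chr11:40755442-40755501, minus strand, match starting 195 bases before the start, 1 mismatch), Cdkn1a (chr17:29090886-29090957, plus strand, 73 bases before, 0 mismatches), Bax (chr7:45467059-45467119, minus strand, 201 bases before, 2 mismatches), and Sesn1 (chr10:41887233-41887295, plus strand, 186 bases before, 2 mismatches).
Ccng1: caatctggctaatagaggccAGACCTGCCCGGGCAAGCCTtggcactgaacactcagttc
Cdkn1a: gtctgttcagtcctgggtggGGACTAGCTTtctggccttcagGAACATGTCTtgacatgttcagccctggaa
Bax: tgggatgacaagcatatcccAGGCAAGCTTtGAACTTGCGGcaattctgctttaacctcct
Sesn1: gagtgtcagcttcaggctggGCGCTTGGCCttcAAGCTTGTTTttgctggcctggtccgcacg

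Cdkn1a, Gtse1, and Sesn1 each have another window, which held no match, so the distances hold for the start of the matching window. For Cdkn1a the window without a match was at chr17:29093519-29093818. In the Cdkn1a match the half-sites were 12 bases apart. Another match with 1 mismatch and no spacer, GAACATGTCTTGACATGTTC at chr17:29090928-29090947, shared the downstream half-site with it. The Gtse1 match lay across the gene start and read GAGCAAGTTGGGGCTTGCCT, at chr15:85859945-85859964 on the plus strand. The genes with these matches did not share a direction past the test: Ccng1 rose, whereas Cdkn1a, Bax, Gtse1, and Sesn1 did not pass it. The windows of Plk2 and Eda2r, which also rose, held no match, which says only that these letters are not in those windows. Matches were not tested as binding sites.

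The half-site that Maf proteins recognize, TGCTGAC on either strand, stood in the windows of Sesn1, Dcxr, and Ano3. That is 9.68% of the 31 genes against 5.28% of all genes with a window. Dcxr fell, whereas Sesn1 and Ano3, whose half-sites lay after the start, did not pass the edgeR test (adjusted P = 0.971 and 0.308). The half-sites were not tested as binding sites. The half-site is shown in capitals for Dcxr, at chr11:120727466-120727512 on the minus strand, 208 bases before the start.
Dcxr: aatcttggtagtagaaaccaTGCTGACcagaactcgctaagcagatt

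Of the 40 p53 target genes, 4 rose in c-MafΔTAM kidneys, namely Ccng1, Zmat3, Plk2, and Eda2r, against 0.586% of all genes tested that rose. Another 2, Pmaip1 and Dcxr, fell, against 1.58% of all genes tested that fell. In 11 of the 40 genes every c-MafΔTAM mouse was above every c-Maf fl/fl mouse, and in 2 every c-MafΔTAM mouse was below, where 4.17% and 5.62% of all genes tested were apart in these directions. The log2 fold change was above 0 in 27 genes and below 0 in 13, with a median of 0.19, against 0.00 over all genes tested. None of the 6 genes that passed shares exonic bases with another gene in the annotation used for counting. Without c-MafΔTAM mouse 3, Ccng1 and Plk2 no longer passed (adjusted P = 0.0625 and 0.0558), and without c-Maf fl/fl mouse 2, Ccng1 did not pass (adjusted P = 0.0604).

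**Figure D1:**
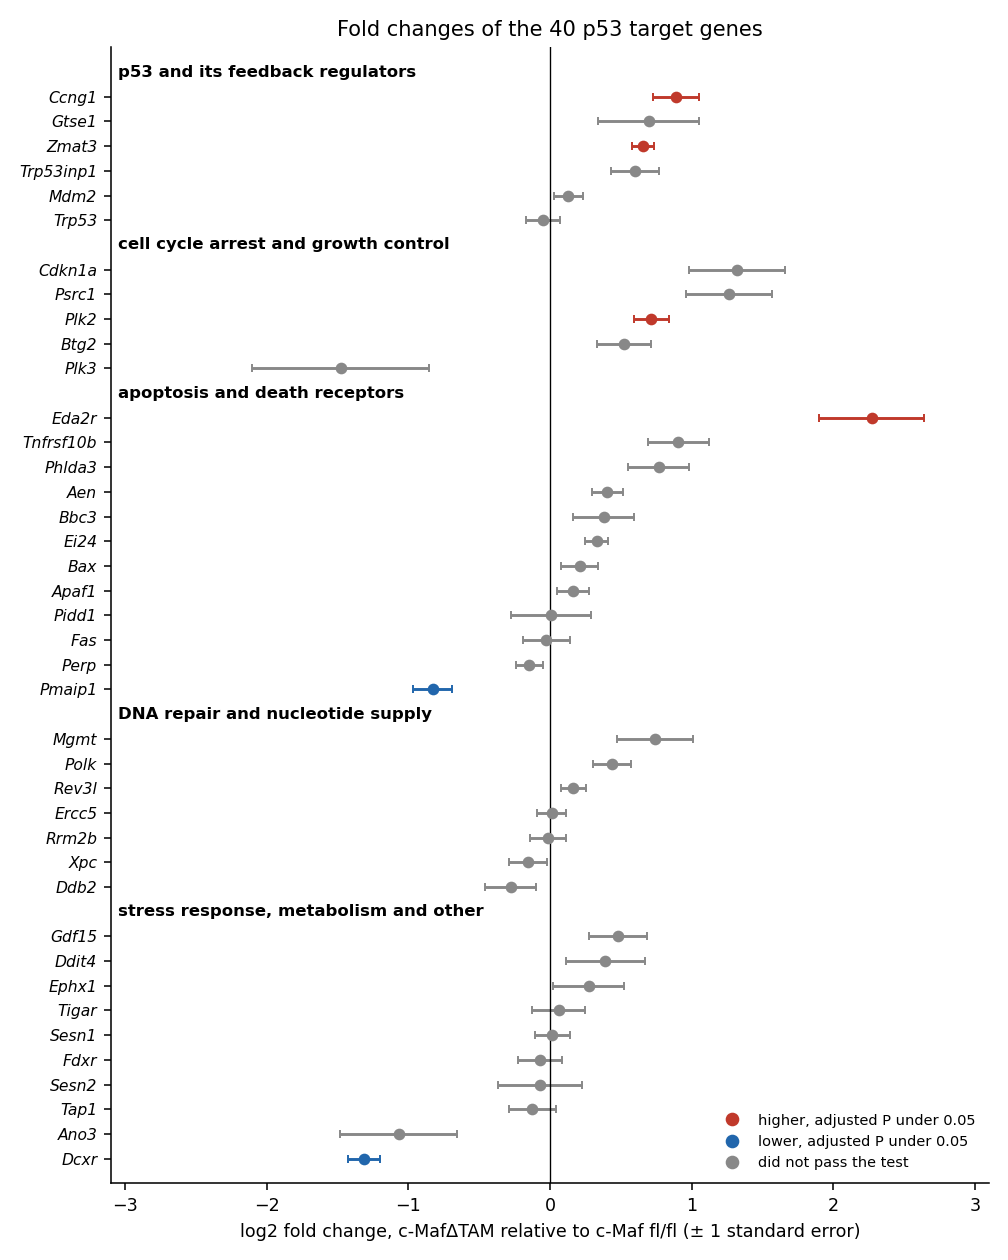
Log2 fold change of each of the 40 p53 target genes in c-MafΔTAM relative to c-Maf fl/fl kidneys (points, with bars of 1 SE of the edgeR fit), grouped by function. Red and blue points are the 4 genes that rose and the 2 that fell at an adjusted P value under 0.05. The gray points, including Cdkn1a at 1.32 and Plk3 at -1.48, did not pass.

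The functional groups were not alike in these counts. Among 6 genes of p53 and its feedback regulators 2 rose and the median log2 fold change was 0.63, and among 5 genes of arrest and growth control 1 rose with a median of 0.72. Among 12 genes of apoptosis and death receptors 1 rose and 1 fell, with a median of 0.27. None of 7 genes of DNA repair and nucleotide supply passed, with a median of 0.01, and 1 of 10 genes of stress response, metabolism, and other roles fell, with a median of -0.03. Genes with every c-MafΔTAM mouse above every control numbered 3 of 6, 3 of 5, and 5 of 12 in the feedback, arrest, and apoptosis groups. They numbered 0 of 7 and 0 of 10 in the repair and stress groups. Below every control were 1 of 12 apoptosis genes (Pmaip1), 1 of 10 stress genes (Dcxr), and 0 in the other groups. Of all genes tested, 4.17% were apart above the controls and 5.62% below. Differences between the groups were not tested.

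Mouse by mouse, each gene was set against its mean log2 CPM in c-Maf fl/fl mice. The median of the 40 genes was then 0.15, 0.16, 0.22, and 0.20 in c-MafΔTAM mice 1 to 4, and 0.01, 0.01, 0.01, and -0.03 in the controls. The genotypes did not overlap in this median, and that of all genes tested was between 0.00 and 0.01 in every mouse. The feedback group was at 0.50 to 0.81 in c-MafΔTAM mice and at -0.06 to 0.22 in c-Maf fl/fl mice, and the arrest group at 0.69 to 0.94 and -0.23 to 0.53. The apoptosis group was at 0.21 to 0.37 and -0.07 to 0.01, so these 3 groups did not overlap between genotypes. The repair group was at -0.03 to 0.14 and -0.06 to 0.08, and the stress group at -0.16 to 0.13 and -0.22 to 0.08, so both overlapped. Each gene was centered on the control mean, so the control medians lie near 0 by construction. The genes and groups were chosen with earlier results of these data known. The medians describe these groups only, were not tested, and have no share of other gene sets beside them.

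**Figure D2:**
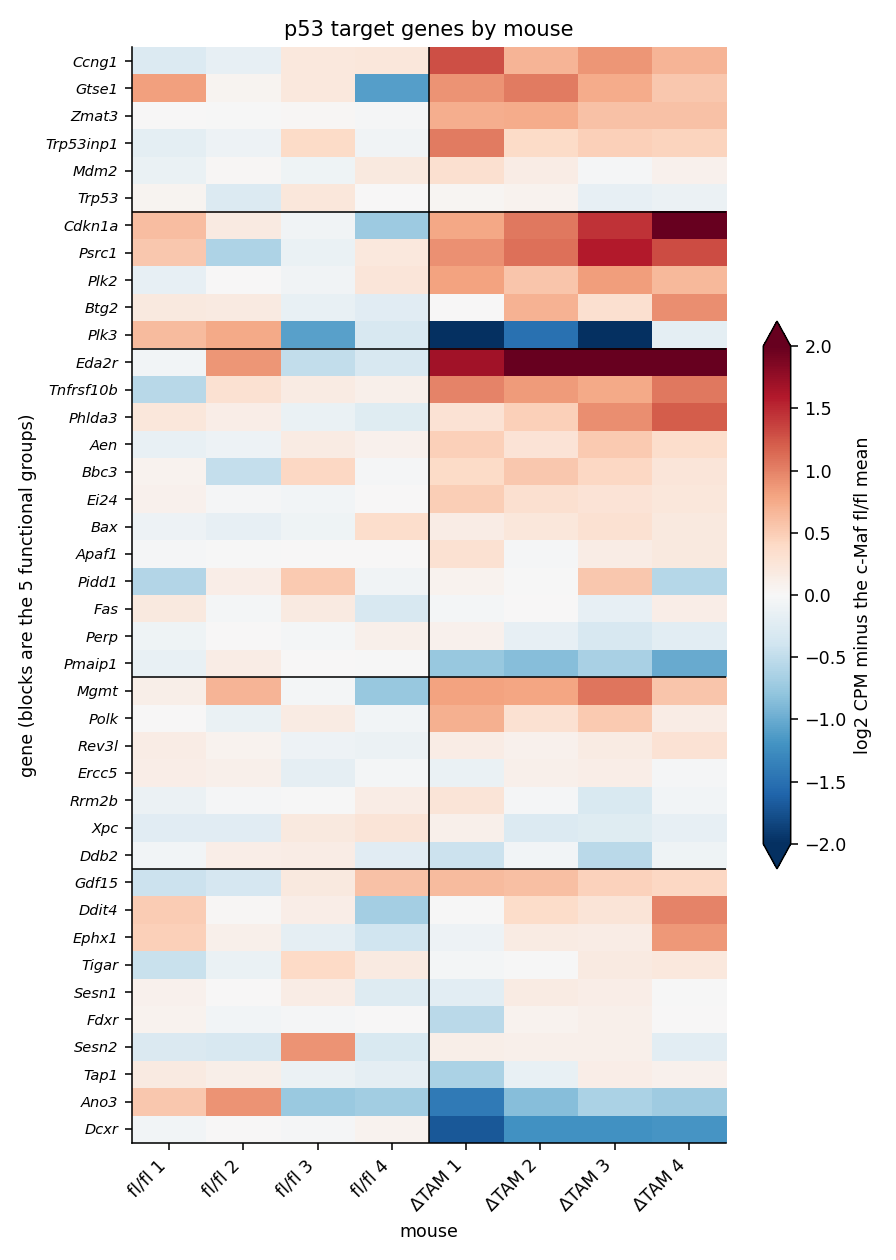
Log2 CPM of the 40 p53 target genes (rows, in 5 blocks by function) in each mouse (columns), as the difference from the c-Maf fl/fl mean of the gene, with colors limited to -2 and 2. The upper 3 blocks (feedback, arrest, apoptosis) are mostly red in the 4 c-MafΔTAM columns, whereas the repair and stress blocks are pale apart from single genes such as Dcxr.

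Trp53, which encodes p53, was at 18.2, 18.6, 15.7, and 16.2 CPM in c-MafΔTAM mice and at 18.3, 14.5, 20.6, and 17.7 CPM in the controls. The genotypes overlapped, and the log2 fold change was -0.05 (SE 0.122, adjusted P = 0.897). About 8.29% of the 36-base sequences of its transcripts also occur in other genes, foremost its pseudogene Trp53-ps. Mdm2, the ubiquitin ligase that limits p53, was at 56.3, 50.2, 44.6, and 47.9 CPM against 41.4, 46.0, 42.6, and 52.1 CPM. These ranges overlapped, and the log2 fold change was 0.13 (SE 0.100, 95% confidence interval -0.09 to 0.35, adjusted P = 0.621). In a two-sided exact permutation test over all 70 assignments of the mice, P was 0.714 for Trp53 and 0.257 for Mdm2.

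The remaining feedback regulators were higher in c-MafΔTAM kidneys by their means, and 2 of them passed the test. Zmat3, a zinc finger protein that binds RNA (chr3:32334792-32366014, GRCm38, minus strand), was at 57.7, 58.3, 52.5, and 52.3 CPM in c-MafΔTAM mice and at 35.3, 34.6, 35.6, and 34.4 CPM in the controls. Every c-MafΔTAM mouse was above every control, and the spread within each genotype was small beside the gap, with a coefficient of variation of 5.89% and 1.68%. Its level rose by 0.66 on the log2 scale (SE 0.0763, adjusted P = 0.000617). Ccng1, cyclin G1, which directs a phosphatase to Mdm2 (chr11:40748552-40755311, minus strand), was at 306.1, 198.8, 231.0, and 199.2 CPM against 103.6, 110.7, 144.7, and 145.8 CPM. The genotypes were again apart, with c-MafΔTAM mouse 1 the highest of all, and the log2 fold change was 0.89 (SE 0.162, adjusted P = 0.0168).

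Trp53inp1, a nuclear partner that promotes phosphorylation of p53, was at 59.9 ± 13.8 CPM (SD, n = 4) against 39.6 ± 7.58 CPM without overlap, but did not pass (log2 fold change 0.60, adjusted P = 0.119). Gtse1, which carries p53 out of the nucleus in G2 phase, was at 2.06 ± 0.317 against 1.26 ± 0.652 CPM with overlap (adjusted P = 0.42). Per kilobase of exon, Ccng1 had the highest level of the 40 genes in c-MafΔTAM kidneys (66.6 CPM per kb), and in c-Maf fl/fl kidneys it was second to Dcxr (35.9 and 85.5 CPM per kb).

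In the arrest group, Plk2, a polo-like kinase induced by stress (chr13:110395046-110400844, plus strand), was the gene that passed. It was at 17.4, 14.6, 17.7, and 15.5 CPM in c-MafΔTAM mice and at 8.78, 9.93, 9.44, and 11.7 CPM in the controls. The genotypes did not overlap, and Plk2 rose by 0.72 on the log2 scale (SE 0.125, adjusted P = 0.011).

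Cdkn1a encodes p21, the inhibitor of cyclin-dependent kinases through which p53 halts division. It was at 12.2, 14.7, 19.4, and 28.8 CPM in c-MafΔTAM mice and at 10.9, 8.04, 6.70, and 4.22 CPM in the controls. Every c-MafΔTAM mouse was above every control, but the values varied widely within each genotype, with a coefficient of variation of 39.0% and 37.4%. The log2 fold change of 1.32 (SE 0.338, 95% confidence interval 0.55 to 2.09) did not pass the test across all genes (adjusted P = 0.104). It passed with DESeq2 (adjusted P = 0.000856) and with the exact test of edgeR (adjusted P = 0.00287). Cdkn1a passed in 3 of 10 other settings, counting the fit with Xist below, and in 0 of 8 fits with a mouse left out. The exact permutation test gave P = 0.0286, the smallest P that 70 assignments allow, and 0.0857 after adjustment over Trp53, Cdkn1a, and Mdm2. In the annotation, 7.68% of the exonic bases of Cdkn1a are shared with 1700023B13Rik, and reads there were not counted.

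Psrc1, a microtubule-binding protein, was at 2.39 ± 0.502 CPM in c-MafΔTAM mice against 0.997 ± 0.356 CPM without overlap (log2 fold change 1.26, adjusted P = 0.0568). Btg2, an antiproliferative protein, was at 30.9 ± 8.53 against 21.5 ± 3.23 CPM with overlap (log2 fold change 0.52, adjusted P = 0.241). Plk3, another polo-like kinase, had the lowest log2 fold change of the 40 genes, -1.48, but did not pass (SE 0.622, adjusted P = 0.356). It was at 3.31, 5.24, 2.77, and 12.9 CPM in c-MafΔTAM mice and at 23.2, 25.3, 7.00, and 12 CPM in the controls, and c-MafΔTAM mouse 4 was above controls 3 and 4.

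In the apoptosis group, the receptor gene that rose and the mitochondrial effector that fell stood at opposite ends. Eda2r, a death-domain-free member of the TNF receptor family that binds ectodysplasin A2 (chrX:97333840-97377216, minus strand), was at 2.19, 3.59, 2.77, and 4.71 CPM in c-MafΔTAM mice and at 0.589, 1.22, 0.406, and 0.469 CPM in the controls. The genotypes did not overlap, and the log2 fold change of 2.27 (SE 0.373, adjusted P = 0.00756) was the highest of the 40 genes. Eda2r was also the lowest of them per kilobase of exon in both genotypes, at 0.563 and 0.114 CPM per kb, so its values rest on few counts.

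Pmaip1 encodes Noxa, a small protein of the BH3-only class that antagonizes Mcl1. It was at 5.65, 5.29, 6.10, and 4.76 CPM in c-MafΔTAM mice and at 8.68, 10.7, 9.74, and 9.62 CPM in the controls. All c-MafΔTAM mice were below all controls, and Pmaip1 fell by 0.83 on the log2 scale (SE 0.140, adjusted P = 0.00906). Bbc3, which encodes Puma of the same class, was at 3.66, 4.11, 3.77, and 3.30 CPM against 2.94, 1.99, 3.75, and 2.76 CPM, and it did not pass (log2 fold change 0.38, SE 0.215, adjusted P = 0.474). The controls of Bbc3 were below the c-MafΔTAM mice except mouse 3, which lay among them.

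Bax, the pore former of the mitochondrial outer membrane, was at 14.2, 14.9, 15.9, and 14.7 CPM in c-MafΔTAM mice against 11.9, 11.5, 12.1, and 16.3 CPM in the controls. Control mouse 4 was above all c-MafΔTAM mice and the other controls were below them, and the gene did not pass (log2 fold change 0.21, SE 0.130, adjusted P = 0.516). Fas, the receptor of Fas ligand, was at 5.39, 5.60, 4.94, and 6.06 CPM against 6.33, 5.37, 6.29, and 4.40 CPM with a log2 fold change of -0.03 (SE 0.166, adjusted P = 0.964). Phlda3, which restrains Akt at the membrane, was at 6.11, 7.04, 9.59, and 11.7 CPM against 5.89, 5.51, 4.57, and 4.22 CPM. The genotypes of Phlda3 were apart, with c-MafΔTAM mouse 1 just above control mouse 1, and the log2 fold change of 0.77 did not pass (SE 0.215, adjusted P = 0.105).

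Of the other 6 apoptosis genes, 3 had every c-MafΔTAM mouse above every control without passing. These were Tnfrsf10b, the receptor of TRAIL, at 4.53 ± 0.427 against 2.42 ± 0.59 CPM (adjusted P = 0.0534), Ei24 of the endoplasmic reticulum at 77.3 ± 6.32 against 61.4 ± 2.59 CPM (adjusted P = 0.0633), and the nuclease gene Aen at 20.8 ± 1.62 against 15.7 ± 1.62 CPM (adjusted P = 0.0907). For Tnfrsf10b, 9.42% of the 36-base sequences also occur in other genes, foremost Gm15574. The genotypes overlapped in Apaf1 of the apoptosome (12 against 10.7 CPM), Pidd1 of the PIDDosome (3.59 against 3.58 CPM), and the junction protein gene Perp (42.4 against 46.9 CPM), and their adjusted P values were over 0.5.

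**Figure D3:**
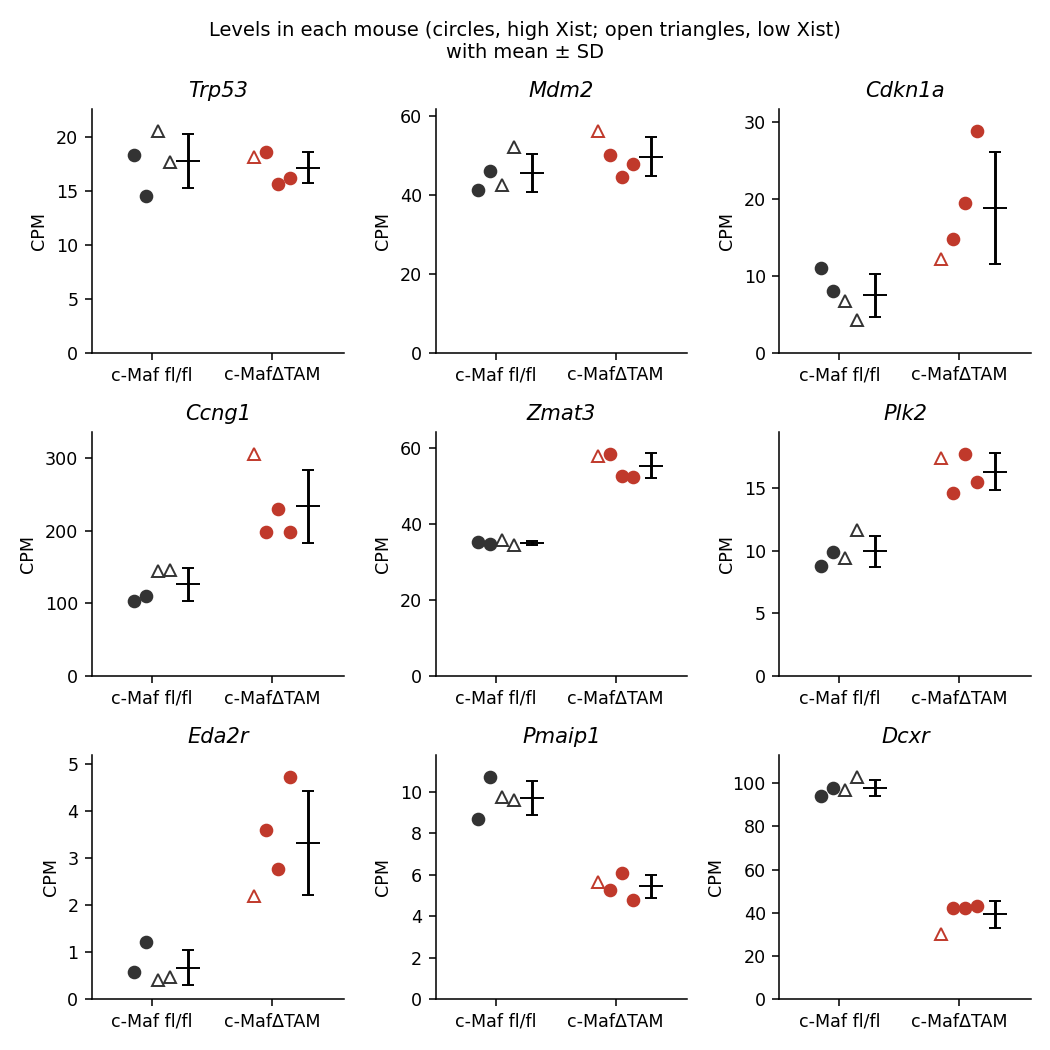
CPM of 9 p53 target genes in each c-Maf fl/fl mouse (black) and each c-MafΔTAM mouse (red), with the mean ± SD beside each genotype (n = 4). Circles are high-Xist mice and open triangles the 3 mice with low Xist. The genotypes overlap for Trp53 and Mdm2 and are apart for the other 7 genes, in Pmaip1 and Dcxr with the c-MafΔTAM mice below.

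In the repair group no gene passed, and the genotypes overlapped in all 7. Ddb2, which recognizes ultraviolet damage, was at 3.56, 4.62, 3.27, and 4.55 CPM in c-MafΔTAM mice and at 4.66, 5.28, 5.33, and 4.10 CPM in the controls (log2 fold change -0.28, SE 0.181, adjusted P = 0.548). Because 23.8% of its exonic bases are shared with Acp2, its counts cover part of the gene. Xpc, its partner in damage recognition, was at 58.2 ± 7.24 against 64.8 ± 12.1 CPM, and the excision nuclease gene Ercc5 at 26.5 ± 2.18 against 26.2 ± 2.57 CPM. Rrm2b, the ribonucleotide reductase subunit under p53 control, was at 18.1 ± 2.93 against 18.3 ± 1.48 CPM.

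The translesion polymerase genes Polk and Rev3l were at 19.2 ± 3.29 against 14.2 ± 1.29 CPM and at 89.1 ± 5.32 against 79.4 ± 7.37 CPM. Mgmt, which removes methyl groups from guanine, was at 4.75 ± 0.698 against 2.82 ± 1.14 CPM. The log2 fold changes of Polk, Mgmt, and Rev3l were 0.43, 0.74, and 0.17 (adjusted P = 0.145, 0.233, and 0.441), and those of Xpc, Ercc5, and Rrm2b were -0.15, 0.01, and -0.01 (adjusted P = 0.67, 0.973, and 0.978).

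In the stress and metabolism group, Dcxr was the gene that passed. It encodes dicarbonyl and L-xylulose reductase, an enzyme abundant in kidney tubules (chr11:120725399-120727281, minus strand). Its level was 30.1, 42.3, 42.0, and 43.3 CPM in c-MafΔTAM mice and 94.1, 97.9, 96.7, and 102.7 CPM in the controls. The genotypes were far apart, c-MafΔTAM mouse 1 was the lowest, and Dcxr fell by 1.31 on the log2 scale (SE 0.112, adjusted P = 8.68e-05). Of the list's proximal tubule markers, 2 of 10 fell in the same kidneys, Slc34a1 from 4098 ± 489.9 to 1745 ± 201.8 CPM and Slc5a12 from 398.2 ± 101.9 to 121.4 ± 15.1 CPM. The log2 fold change was below 0 in 8 of the 10. Their summed level was 17088 to 25884 CPM in c-MafΔTAM mice and 18341 to 27928 CPM in c-Maf fl/fl mice, of which Kap, a transcript of the proximal tubule, made up 3342 to 13730 and 1801 to 8760 CPM. Without Kap, a choice made after seeing the data, the sum was 12153 to 15415 CPM in c-MafΔTAM mice, below all of the controls at 16540 to 19169 CPM. Slc34a1 and Slc5a12 are part of that sum, and they were the 2 of the 10 markers without overlap. Lrp2, Cubn, and Acsm1 overlapped, with log2 fold changes of -0.17, -0.03, and 0.30. The part of these cells in the fall of Dcxr was not tested. In whole kidneys, fewer cells of a type and less RNA per cell cannot be told apart.

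Sesn2, a sestrin that restrains mTORC1 when leucine is scarce, was at 80.9, 79.9, 80.2, and 64.4 CPM in c-MafΔTAM mice and at 61.2, 59.5, 139.8, and 60.6 CPM in the controls. Control mouse 3 stood far above the others, and the log2 fold change was -0.07 (SE 0.298, adjusted P = 0.946). Without that mouse it was 0.34 and still did not pass. Gdf15, a secreted stress cytokine, was at 12.2, 11.9, 10.8, and 10.5 CPM against 5.79, 6.14, 8.93, and 11.7 CPM. Control mouse 4 reached into the range of the c-MafΔTAM mice, and the log2 fold change of 0.48 (SE 0.207, adjusted P = 0.324) did not pass.

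Ano3, a scramblase-like anoctamin, was at 6.87, 10.2, 11.9, and 11.3 CPM in c-MafΔTAM mice and at 26.9, 34.5, 11.1, and 11.4 CPM in the controls (log2 fold change -1.07, adjusted P = 0.308). Controls 1 and 2 were above all other mice, and controls 3 and 4 lay within the range of the c-MafΔTAM mice. The glycolysis regulator Tigar (6.85 against 6.58 CPM), the mTORC1 inhibitor Ddit4 (27.1 against 20.6 CPM), the epoxide hydrolase Ephx1 (49.5 against 40.9 CPM), the peptide transporter Tap1 (13.2 against 14.3 CPM), the ferredoxin reductase Fdxr (9.52 against 9.99 CPM), and Sesn1 (16.7 against 16.5 CPM) overlapped between genotypes. None of these 6 passed, with adjusted P values from 0.597 to 0.971.

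Mice with high and low Xist were present in both genotypes, with 3 and 1 c-MafΔTAM mice and 2 and 2 c-Maf fl/fl mice. With Xist, on a log2 scale, as covariate, 14 of the 40 p53 target genes rose, against 2.59% of all genes tested, and 3 fell, against 4.23%. Besides the 4 that rose without the covariate, these were Cdkn1a, Trp53inp1, Btg2, Psrc1, Tnfrsf10b, Ei24, Aen, Phlda3, Polk, and Gdf15, and besides Pmaip1 and Dcxr, Ano3 fell. The adjusted P values were 0.0187 for Cdkn1a (log2 fold change 1.19), 0.000154 for Trp53inp1 (0.67), 4.18e-07 for Ccng1 (0.98), and 0.000656 for Ano3 (-1.16). The adjusted P value of Mdm2 was 0.331 and that of Trp53 0.966 in this fit. Counting the genes that rose by function, 3 of 6 were feedback regulators, 4 of 5 arrest genes, 5 of 12 apoptosis genes, 1 of 7 repair genes, and 1 of 10 stress genes.

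Within each Xist class, 14 of the 40 genes had every c-MafΔTAM mouse above every control, where 9.5% of all genes tested did. They were the 14 that rose in the fit with Xist, which used the same mice, so the counts are not independent. In 5 genes, namely Pmaip1, Dcxr, Ano3, Plk3, and Ddb2, every c-MafΔTAM mouse was below every control in both classes, where 11.1% of all genes tested were. Gdf15 shows the layout: among high-Xist mice it was at 11.9, 10.8, and 10.5 CPM against 5.79 and 6.14 CPM, and among low-Xist mice at 12.2 against 8.93 and 11.7 CPM. Controls with low Xist were thus the higher of the controls. Ano3 had the opposite order among controls, with 26.9 and 34.5 CPM in high-Xist and 11.1 and 11.4 CPM in low-Xist controls.

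When the test was confined to the 5 high-Xist mice, 7 of the 40 genes rose, against 1.53% of 21027 genes tested, and 3 fell, against 2.22%. The 7 were Ccng1, Trp53inp1, Zmat3, Plk2, Eda2r, Aen, and Gdf15, and the 3 were Pmaip1, Dcxr, and Ano3. Gdf15 rose by 0.89 on the log2 scale (adjusted P = 0.0063) and Ano3 fell by 1.47 (adjusted P = 1.08e-05). Cdkn1a, at a log2 fold change of 1.15, did not pass among these mice (adjusted P = 0.158). No test was made within the 3 low-Xist mice, which include 1 c-MafΔTAM mouse.

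**Figure D4:**
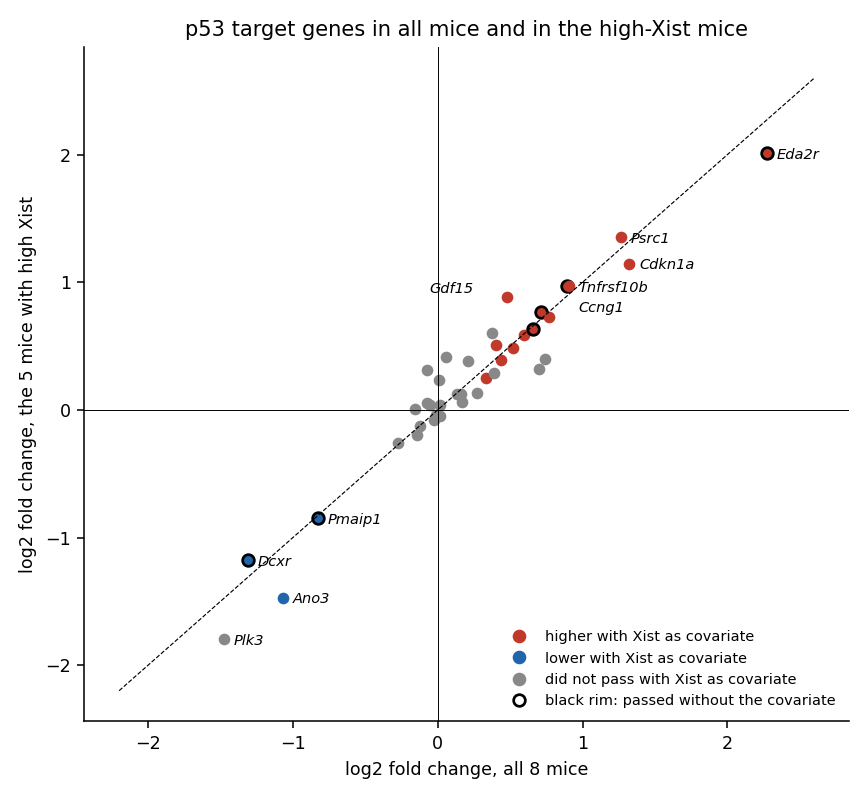
Log2 fold change of the 40 p53 target genes among the 5 high-Xist mice (vertical axis) against that among all 8 mice (horizontal axis), with the line of equality dashed. Red and blue points are the 14 genes that rose and the 3 that fell with Xist as a covariate, and a black rim marks the 6 that passed without it. The 7 points farthest from the line are Gdf15, Ano3, Plk3, Sesn2, and Tigar, which lie farther from 0 among the high-Xist mice, and Gtse1 and Mgmt, which lie nearer to 0.

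Of 84 other genes of the p53 pathway, 78 passed the filter, 1 rose and 1 fell, against 0.586% and 1.58% of all genes tested, and their median log2 fold change was -0.03. Among them, 29 further targets and effectors of p53 had a log2 fold change above 0 in 14 and below 0 in 15, with a median of -0.01. Both genes that passed, Dglucy and Bid, belong to these. Dglucy, a mitochondrial D-glutamate cyclase, rose from 91.2 ± 14.3 to 144.3 ± 13.5 CPM (log2 fold change 0.66, adjusted P = 0.0115), and Bid, a BH3-only protein cleaved by caspase-8, fell from 43.4 ± 4.99 to 28.7 ± 2.72 CPM (log2 fold change -0.60, adjusted P = 0.0123). Of the 13 kinases and sensors that signal DNA damage to p53, and of 14 ligases and partners of p53 that passed the filter, edgeR called 0, where 2 and 1 were higher and 0 and 1 lower at an unadjusted P under 0.05. Of all 20149 genes tested, 1326 were higher and 1499 lower at that level. Mdm4, the other ligase-like inhibitor of p53, was at 62.8 CPM in both genotypes. Of 25 cell cycle genes that p53 activity is known to lower, 22 passed the filter and edgeR called 0. Their log2 fold changes were below 0 in 19 of 22 with a median of -0.37, and 5 were lower and 0 higher at an unadjusted P under 0.05. Set against the c-Maf fl/fl mean, the median of the 22 was -0.42, -0.35, -0.11, and -0.17 in c-MafΔTAM mice. It was 0.65, 0.16, -0.31, and -0.33 in the controls, so the genotypes overlapped over all mice. Split by Xist after seeing the data, high-Xist c-MafΔTAM mice (-0.35, -0.11, and -0.17) were below high-Xist controls (0.65 and 0.16). Among low-Xist mice, -0.42 in c-MafΔTAM mouse 1 was below -0.31 and -0.33 in controls 3 and 4. Control mouse 1 was the highest control in 16 of the 22 genes. The median difference in mean log2 CPM was -0.30 with all mice, and -0.13, -0.22, -0.38, and -0.42 without controls 1 to 4 in turn.

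Markers of other cells were summed in each mouse beside these results. Tubular injury markers, of which 8 of 10 passed the filter, were at 597.8 to 968.3 CPM in c-MafΔTAM mice and at 709.0 to 1264 CPM in c-Maf fl/fl mice, and Spp1 alone made up 346.8 to 642.9 and 459.3 to 962.0 CPM of this sum. Of the 8, Krt8 fell, 6 had a log2 fold change above 0 with a median of 0.04 over the list, and 1 was higher and 1 lower at an unadjusted P under 0.05. Macrophage markers (8 of 8) were at 227.2 to 300.0 and 210.7 to 247.3 CPM with 0 called by edgeR and 2 higher at an unadjusted P under 0.05. Their log2 fold change was above 0 in 7 of 8 with a median of 0.21, where the median of the 40 p53 target genes was 0.19. Lymphocyte markers (1 of 7) were at 1.35 to 3.16 and 1.29 to 2.59 CPM. Endothelial markers (6 of 6) were at 398.6 to 408.4 and 411.4 to 482.2 CPM without overlap, and 1 of them, Kdr, fell. Kdr made up 75.5 to 89.5 and 105.2 to 120.5 CPM of this sum, and it was the 1 marker of the 6 without overlap. The log2 fold change was above 0 in 2 of the 6 and below 0 in 4, with a median of -0.08. Markers of fibroblasts and mural cells (8 of 8, 482.4 to 682.9 and 385.3 to 674.1 CPM), podocytes (5 of 5, 370.9 to 512.1 and 397.6 to 499.4 CPM), distal segments (8 of 8, 4334 to 6867 and 5221 to 7011 CPM), and erythroid cells (5 of 5, 187.8 to 285.2 and 204.2 to 348.7 CPM) overlapped. Hepatocyte markers (6 of 8) were at 147.5 to 1402 and 94.6 to 651.3 CPM, with Cyp2e1 making up 1398 CPM in c-MafΔTAM mouse 1. Of these 6 markers Ttr fell, 3 had a log2 fold change above 0, and 1 was higher and 2 lower at an unadjusted P under 0.05. The part of these cells in the levels of the p53 target genes was not tested.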

How the data were processed

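RNA-Seq counts of whole kidneys were analyzed in 4 c-MafΔTAM and 4 c-Maf fl/fl mice. The authors deposited raw counts of reads per gene name, made with featureCounts 2.0.1 on exons of the Ensembl 102 annotation of GRCm38. Per the file header each read of a pair was counted separately, strand was ignored although the kit marks it, and reads on more than 1 gene were left out. The header names no aligner. The study's methods describe mapping to mm10 in CLC Genomics Workbench, a route that differs from the featureCounts header, and whether the counted alignments came from it is not given in the sources used here. The submitters' processing notes also name Subread 2.0.2 and edgeR 3.36.0. The number of columns left unused was 0.

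Genes were kept by filterByExpr and scaled by TMM, and the comparison of genotypes used the quasi-likelihood test of edgeR, robust and without covariates (R 4.3.3, edgeR 4.0.16, limma 3.58.1), with Benjamini-Hochberg adjustment over 20149 genes. The depth was 16649129 to 22990257 counts per mouse, and the biological coefficient of variation was 0.203. Log2 CPM values used a prior count of 2, and SE was obtained from the fold change and the F statistic. The permutation tests were exact and two-sided. High Xist means more than 10 CPM. Each mouse was 1 replicate, and all pairs within a genotype differed by more than counting noise.

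The 40 genes, their groups, and the other lists were chosen with earlier results of these data known. All 40 were accounted for, with full statistics for those that passed and for Trp53, Cdkn1a, Mdm2, Bax, Bbc3, Gdf15, Ddb2, Sesn2, Fas, and Phlda3. Plk3, Ano3, and Mdm4 were described further after their values had been seen. Of other pathway genes those that passed were named, and of marker lists at most 2 that passed. Promoters came from RefSeq (GRCm38.p6), and 36-base sequences were compared with GENCODE transcripts of GRCm38. Windows were not used here for Trp53inp1, Zmat3, Pmaip1, Tnfrsf10b, Perp, Ddb2, Xpc, Rrm2b, and Rev3l. Alternatives tried were upper-quartile and RLE factors, DESeq2 1.42.0, the edgeR exact test (genes of 5 or more counts over all mice), filters of at least 1 count in any mouse or 10 in every mouse, a replicate block, Xist as a covariate, high-Xist mice alone, counts without 391 mitochondrial and ribosomal RNA genes, an adjusted P under 0.01, a prior count of 0.5, and each mouse left out. After seeing the data, the cell cycle list was also taken without each control and read by Xist level. The proximal tubule sum was also taken without Kap. The scripts were tested on simulated data. Python 3.11.15 and matplotlib 3.10.9 served for the figures.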

Additional observations from a re-analysis of the deposited data

Results flagged for a closer look

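Each of the 40 genes was examined in each genotype for a mouse whose gap to its nearest neighbor took most of the range (Dixon's 95% limit for 4 mice). Of 80 groups 6 exceeded it, where chance gives about 4. In c-MafΔTAM mouse 1, Trp53inp1 stood at 80.4 CPM (51.0 to 54.7 CPM in the remaining c-MafΔTAM mice), Dcxr at 30.1 CPM (42.0 to 43.3 CPM), and Fdxr at 6.82 CPM (10.1 to 10.7 CPM). For Sesn2, c-Maf fl/fl mouse 3 had 139.8 CPM, where the remaining controls had 59.5 to 61.2 CPM, and c-MafΔTAM mouse 4 had 64.4 CPM, where its group had 79.9 to 80.9 CPM. For Bax, c-Maf fl/fl mouse 4 had 16.3 CPM, where the remaining controls had 11.5 to 12.1 CPM. Without c-MafΔTAM mouse 1 the numbers of p53 target genes that rose and fell were 5 and 2, against 0.691% and 1.51% of all genes tested in that fit.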

How the results depend on the processing

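The number of the 40 genes that rose, 4 in the report, became 7 with upper-quartile factors (0.754% of all genes tested rose), with edgeR's exact test (0.694%), with genes of at least 1 count in any mouse (0.505%), and in high-Xist mice alone (1.53%). It was 11 with DESeq2 (1.58%) and 14 with Xist as a covariate (2.59%). At an adjusted P under 0.01 in the edgeR test, Zmat3 and Eda2r still rose and Pmaip1 and Dcxr still fell. The share of all genes at that threshold is not given here, so these 4 genes cannot be set against it. With a single mouse left out it was 2 to 5, lowest without c-MafΔTAM mouse 3, where 0.248% of all genes rose, against 0.248% to 0.691% over these fits. In each of them 2 genes fell, against 0.913% to 1.51% of all genes. Zmat3, Eda2r, Pmaip1, and Dcxr passed in 8 of 8 such fits, Plk2 in 7, and Ccng1 in 6. With a replicate block 2 genes rose (Zmat3 and Eda2r) and 1 fell (Dcxr), against 0.0893% and 0.551% of all genes. The deviations of mice with the same number correlated at -0.373, 0.152, -0.11, and -0.331 for numbers 1 to 4, which gives no sign of pairing. The difference between high-Xist and low-Xist mice was not taken out of these correlations, so they cannot decide whether the numbers pair the mice. With at least 10 counts in every mouse, 38 of the 40 genes were tested and Eda2r was not among them. The median log2 fold change, 0.19, was 0.23 with upper-quartile factors, 0.27 in high-Xist mice alone, and 0.15 to 0.22 with a mouse left out, lowest without c-MafΔTAM mouse 4.

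In the exact permutation test the difference of Cdkn1a was 1.08 to 1.53 with a mouse left out, with P = 0.0286 or 0.0571, and that of Trp53 was -0.137 to 0.0296. Genes near 0 changed sign. Trp53 was at 0.0351, Xpc at 0.00597, Fdxr at 0.050, Ercc5 at -0.0470, and Sesn2 at 0.309 in high-Xist mice. With Xist as a covariate Ercc5 was at -0.0251, Sesn1 at -0.0192, Rrm2b at 0.0264, and Sesn2 at 0.0763. Fas and Rrm2b were at 0.0149 and 0.0319 with upper-quartile factors, and Sesn2 at 0.0316 with the replicate block. With a mouse left out the ranges crossing 0 were Trp53 -0.14 to 0.029, Fas -0.12 to 0.035, Pidd1 -0.20 to 0.21, Rrm2b -0.12 to 0.071, Ercc5 -0.044 to 0.064, Sesn1 -0.057 to 0.089, Sesn2 -0.19 to 0.34, Tigar -0.072 to 0.21, Tap1 -0.22 to 0.019, and Fdxr -0.13 to 0.062. Of 398 values of single genes under the settings other than leaving out 1 mouse, 350 kept direction and side of the threshold, 33 newly passed it, 3 no longer passed it, and 12 changed sign. The cause of these changes was not tested. The SE was largest for Plk3 (0.622), Ano3 (0.414), Eda2r (0.373), Gtse1 (0.356), and Cdkn1a (0.338).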
